A study of Mus musculus with 3 samples.

Results

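The genes described here are 4 ligands and 2 receptors of the tumour necrosis factor (TNF) family, Tnf, Lta, Ltb, Tnfsf9, Tnfrsf1a and Tnfrsf1b. They were taken by name from the gene and transcript tables, in which each symbol matched a single gene identifier, and they are 6 of 55536 annotated genes. The RNA was the chromatin fraction of bone marrow-derived macrophages from C57BL/6J mice, which are primary cells that had received Lipid A at 100 ng/ml for 40 min. Lipid A is the membrane anchor of bacterial lipopolysaccharide and activates Toll-like receptor 4. The series has 1 group of 3 biological replicates, sequenced as total RNA after removal of ribosomal RNA from 1000, 250 and 500 ng of RNA in replicates 1, 2 and 3. Each replicate is a biosample of its own, and all 3 name 1 donor entry in the labels. All cells of all replicates had received Lipid A, and no untreated cells, other time or other fraction were analysed here, so every value is a level and not a response.

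RNA on chromatin is mostly RNA that is being made or has just been made, so its level follows transcription more closely than that of cytoplasmic mRNA. Macrophages are a main source of TNF, which is made as a membrane protein, released by the protease ADAM17, and bound by the widely expressed receptor encoded by Tnfrsf1a and by the receptor of immune cells encoded by Tnfrsf1b. Lta encodes lymphotoxin alpha and Ltb encodes lymphotoxin beta, ligands known mainly from lymphocytes, and Tnfsf9 encodes CD137 ligand, which stimulates T cells through Tnfrsf9.

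Levels are given in TPM (transcript abundance scaled for length and library size), a unit used to set genes beside each other. The size of such comparisons differed between the alignment-based and alignment-free tables described below. Each gene was also set against the reference gene of its library, defined as the median level of the 8765 nuclear protein-coding genes whose mean TPM reached 1; it lay at a TPM of 7.56, 6.64 and 6.56 in replicates 1, 2 and 3. A gene is called higher or lower where its level differed from the reference by more than 2-fold in limma at an adjusted p under 0.05. Total expected counts were 12699813, 18280033 and 18087091. Of 9 macrophage markers 7 were called higher and none lower, beside 15.1% higher and 52.5% lower of all genes tested. Cd14, the lipopolysaccharide co-receptor, led the 9 by mean TPM, at 192, 189 and 242. Csf1r, another of the 9, was at 222, 216 and 172, above Cd14 in replicates 1 and 2, and was above it in every library of the alignment-free table.

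Of the 6 genes, Tnf, Tnfsf9 and Tnfrsf1b were called higher than the reference gene, whereas 15.1% of all 18428 genes tested were. Ltb and Lta were called lower, as were 52.5% of all genes tested. Tnfrsf1a passed neither test. The 6 levels spanned from a mean TPM of 350 for Tnf to 0.31 for Lta, its immediate neighbour on chromosome 17.

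Tnf, which encodes the cytokine itself (ENSMUSG00000024401.14, chr17:35199381-35202007 in mm10, minus strand), had a TPM of 473 in replicate 1, 256 in replicate 2 and 319 in replicate 3 (350 ± 112, SD, n = 3). It rested on 9342, 8165 and 9504 counts. All 3 libraries placed it above 99.0% of the 8765 protein-coding genes, with the highest value in replicate 1 and the lowest in replicate 2. The difference from the reference gene was 5.59 ± 0.18 on the log2 scale (SE, n = 3; limma, adjusted p = 4.3e-05), a 48.3-fold higher level, positive in 3 of 3 libraries. In bulk RNA, fewer cells that transcribe a gene and less RNA per cell cannot be told apart, here and for every level that follows. The annotation holds 2 spliced forms of Tnf that differ by exon 3, and the reads went to the form that has it. Exon 3 of Tnf-201 (chr17:35200858-35200905, minus strand, coding sequence) is shown because it is the stretch that tells the forms apart; its 48 bases are in capitals between 20 bases of exon 2 and of exon 4.
Tnf exon 3: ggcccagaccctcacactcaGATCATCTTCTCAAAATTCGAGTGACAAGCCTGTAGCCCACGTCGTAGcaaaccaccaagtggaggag
Tnf-201 took 100% of the transcript TPM of Tnf in every library of the alignment-based table. Tnf-202, which lacks these bases, was given no count there and 4.74, 6.95 and 4.11 of 15554, 15583 and 16199 estimated counts of Tnf in the alignment-free table.

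Tnfsf9, the gene of CD137 ligand (ENSMUSG00000035678.8, chr17:57105325-57107757, plus strand), was the other ligand called higher. Its TPM was 335, 152 and 255 in replicates 1, 2 and 3 (248 ± 92.0, SD, n = 3), from 4998, 3621 and 5727 counts. Replicate 2 was again the lowest and replicate 1 the highest, an order in TPM that Tnfrsf1b and Tnfrsf1a also had. The difference from the reference gene was 5.07 ± 0.22 on the log2 scale (SE, n = 3; limma, adjusted p = 8.6e-05), 33.6-fold, positive in 3 of 3 libraries. The annotated gene overlaps Gm11110, a long noncoding RNA gene on the opposite strand (chr17:57091370-57105942), over 618 bases, 192 of them exonic in both. The expected counts of Tnfsf9 were not whole numbers, and with those of Gm11110 (32.2, 40.0 and 48.1) they summed to 5030, 3661 and 5775, so reads were divided between genes of opposite strands. In the alignment-free table Gm11110 had a TPM of 21.5, 8.12 and 13.4, against 2.04, 1.50 and 2.24 in the alignment-based table. Reads of the overlap cannot be assigned to a gene with certainty.

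Ltb and Lta, the lymphotoxin genes, stood at the other end. Ltb (ENSMUSG00000024399.5, chr17:35194439-35196320, plus strand), which encodes the membrane-bound partner of lymphotoxin alpha, had a TPM of 1.02, 1.40 and 1.07 (1.16 ± 0.206, SD, n = 3). The 17, 34 and 27 counts behind these values have exact 95% Poisson intervals of 9.90 to 27.2, 23.5 to 47.5 and 17.8 to 39.3, which overlap and cover counting error only. Its difference from the reference gene was -2.48 ± 0.22 on the log2 scale (SE, n = 3; limma, adjusted p = 0.0011), below in 3 of 3 libraries; with a 4-fold band the adjusted p was 0.083, and against a reference taken from genes with a TPM of at least 0.1 the difference was -1.42 with an adjusted p of 0.088. Ltb is therefore called lower under the stated rule but not with every band or reference, though its difference was negative under every alternative.

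Lta (ENSMUSG00000024402.5, chr17:35203165-35205351, minus strand), whose product is secreted or held at the membrane by lymphotoxin beta, was the lowest of the 6 genes. Its TPM was 0.31, 0.42 and 0.20 (0.31 ± 0.11, SD, n = 3), from 5, 11 and 5 counts. Exact 95% Poisson intervals of these counts were 1.62 to 11.7, 5.49 to 19.7 and 1.62 to 11.7, so differences between libraries were not detectable at this depth. The difference from the reference gene was -4.13 ± 0.30 on the log2 scale (SE, n = 3; limma, adjusted p = 0.00032), below in 3 of 3 libraries, on a log2(TPM + 0.1) scale that understates how far low genes lie below.

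Because lymphocytes are known sources of Lta and Ltb, markers of lymphocytes and of other marrow cells were read beside them. Of all genes tested 52.5% were called lower, and 85% of all genes without the filter on low values, which was not applied to these markers. Summed over 8 T cell markers the TPM was 3.81, 5.22 and 2.50, and 7 of the 8 were called lower. Cd4, a co-receptor of helper T cells, gave most of that sum with 2.50, 4.28 and 2.11, while Cd3d, Cd3e and Trac were at 0 counts in every library; the alignment-free table gave Cd3d a TPM of 17.3, 14.1 and 19.3. All 5 B cell markers were called lower, with a summed TPM of 0.04 to 0.13 and Cd79b, a chain of the B cell receptor complex, as the highest (0.07, 0.05 and 0). The NK cell markers Ncr1, Klrb1c, Eomes and Gzma had 0 counts in all 3 libraries, where a count of 0 allows up to 3 counts, or 2.36e-05%, 1.64e-05% and 1.66e-05% of the total. Summed TPM was at most 0.89 for 7 neutrophil markers (highest S100a8, a calcium-binding protein, at 0.25, 0.53 and 0), 0.80 for 4 dendritic cell markers (highest Zbtb46, a transcription factor, at 0.52, 0.46 and 0.52) and 0.06 for 3 mast cell markers (highest Cpa3, a mast cell protease, at 0.06, 0 and 0). In the alignment-free table some of these markers were higher too, with Ms4a1, a B cell surface protein, at 1.78, 1.13 and 1.33, Eomes at 1.18, 0.577 and 1.23 and Zbtb46 at 2.42, 1.64 and 1.62. The part of other cells in the low counts of Lta and Ltb was not tested.

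Of the receptors of TNF, Tnfrsf1b was high and Tnfrsf1a was close to the reference gene. Tnfrsf1b (ENSMUSG00000028599.10, chr4:145213463-145246870, minus strand), which encodes the receptor without a death domain, had a TPM of 92.1, 83.5 and 87.7 (87.8 ± 4.26, SD, n = 3), from 4561, 6826 and 6669 counts. The 3 values lay within 1.10-fold of each other, whereas the alignment-free TPM ranged more widely, at 221, 133 and 152. Its difference from the reference gene was 3.65 ± 0.11 on the log2 scale (SE, n = 3; limma, adjusted p = 5.1e-05), 12.5-fold, positive in 3 of 3 libraries. Tnfrsf1a (ENSMUSG00000030341.17, chr6:125349362-125362484, plus strand), which encodes the receptor with a death domain that recruits TRADD and RIPK1, had a TPM of 10.7, 8.63 and 9.39 (9.57 ± 1.04, SD, n = 3), from 221, 322 and 307 counts. That placed it near the middle of the expressed protein-coding genes, above 57.5% to 59.3% of them. It lay 0.46 ± 0.12 above the reference on the log2 scale (SE, n = 3; limma, adjusted p = 1) and inside the 2-fold band, above in 3 of 3 libraries. Tnfrsf1a was called higher with no band (adjusted p = 0.015), with the reference from a TPM of 0.1 (1.52, adjusted p = 0.0075) and in the alignment-free table (1.33, adjusted p = 0.030), and its difference was -0.73 (adjusted p = 1) with the reference from a TPM of 5.

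Set against each other within each library, the 6 genes kept 1 order in all 3 libraries: Tnf, Tnfsf9, Tnfrsf1b, Tnfrsf1a, Ltb and Lta. Tnf exceeded Tnfsf9 by 0.52 ± 0.22 on the log2 scale (SD, n = 3), with TPM ratios of 1.41, 1.69 and 1.25. Tnfsf9 exceeded Tnfrsf1b by 1.42 ± 0.51, with ratios of 3.64, 1.82 and 2.91. In the alignment-free table these differences were 0.79 and 0.55, so which of them is smaller depends on the table. Replicate 2, with the lowest Tnfsf9, had the widest gap to Tnf and the narrowest to Tnfrsf1b. The gap between the receptors was the steadiest of the neighbouring pairs, 3.19 ± 0.08, with Tnfrsf1b 8.62, 9.68 and 9.34 times Tnfrsf1a. Tnfrsf1a exceeded Ltb by 2.94 ± 0.37 and Ltb exceeded Lta by 1.65 ± 0.28. Tnf, the ligand, exceeded Tnfrsf1b, the higher of its receptors, by 1.95 ± 0.38, with ratios of 5.14, 3.07 and 3.63. The smallest exact two-sided sign-flip permutation p that 3 libraries allow is 0.25, and all 15 pairs had it (0.25 after Benjamini-Hochberg adjustment over the 15), with the same sign in 3 of 3 libraries each; the design cannot reach 0.05 for these differences.

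**Figure D1:**
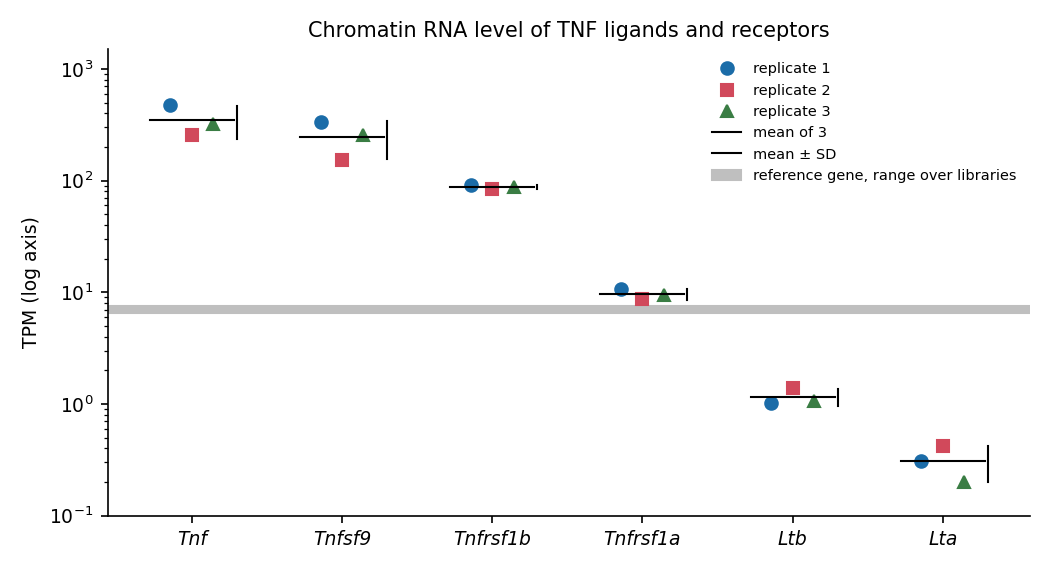
Level of each of the 6 genes in TPM on a log axis, with 1 point per replicate (circle 1, square 2, triangle 3), a horizontal bar at the mean of the 3 libraries, a vertical line for mean ± SD, and a grey band over the reference gene (TPM 6.56 to 7.56). Tnf, Tnfsf9 and Tnfrsf1b lie above the band in every replicate, Tnfrsf1a just above it, and Ltb and Lta below it.

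The 3 neighbouring genes Ltb, Tnf and Lta of the set form a compact cluster on chromosome 17: Ltb ends 3060 bases from the end of Tnf, and the start of Tnf lies 1157 bases from the end of Lta. The start sites of Tnf and Lta are 3344 bases apart on the same strand, and Tnf stood 1527-fold, 611-fold and 1593-fold above Lta in replicates 1, 2 and 3. These ratios rest on 5, 11 and 5 counts of Lta, so their size is imprecise and their differences between libraries cannot be read. Upstream sequences of the cluster are shown, up to 250 bases before each annotated start, because they are what lies before neighbouring genes of such unequal level. They are from RefSeq on GRCm38.p6, in the direction of transcription, from chr17:35202008-35202257 on the minus strand for Tnf, chr17:35205352-35205601 on the minus strand for Lta and chr17:35194257-35194438 on the plus strand for Ltb. Capitals mark a match to TATAAA in Tnf and Lta, and to the NF-κB decamer in Ltb.
Tnf promoter: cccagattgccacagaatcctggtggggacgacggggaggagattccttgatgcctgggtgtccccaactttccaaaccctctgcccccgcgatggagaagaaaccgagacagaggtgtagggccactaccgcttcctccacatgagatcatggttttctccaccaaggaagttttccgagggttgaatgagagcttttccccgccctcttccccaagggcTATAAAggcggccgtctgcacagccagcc
Lta promoter: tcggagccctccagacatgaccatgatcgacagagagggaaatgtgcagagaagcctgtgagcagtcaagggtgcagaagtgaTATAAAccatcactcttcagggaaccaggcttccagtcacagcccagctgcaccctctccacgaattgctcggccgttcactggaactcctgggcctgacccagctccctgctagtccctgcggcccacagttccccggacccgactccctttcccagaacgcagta
Ltb promoter: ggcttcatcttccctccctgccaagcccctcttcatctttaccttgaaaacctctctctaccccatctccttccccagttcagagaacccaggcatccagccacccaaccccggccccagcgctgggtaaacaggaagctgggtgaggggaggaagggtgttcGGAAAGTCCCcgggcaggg
Promoter sequences of 5 of the 6 genes were matched; Tnfsf9 was not. Windows ran from 250 bases before to 50 after the RefSeq start. Both strands were searched for TATAAA, for the AP-1 heptamer TGANTCA and for the NF-κB decamer GGGRNNYYCC. In these codes N is any base, R is A or G and Y is C or T. Sites outside the windows or departing from these letters were not searched for, so a gene without a match may still have sites. TATAAA begins 29 bases before the start of Tnf and 167 before that of Lta, and 13.6% of 32851 promoters hold it. The NF-κB decamer was found once, in Ltb, on the minus strand, beginning 87 bases before the RefSeq start at 35194507, and 8.46% of promoters hold it. TGANTCA, which 7.81% of promoters hold, was in none of the 5 windows, and the windows of Tnfrsf1a and Tnfrsf1b held none of the 3 motifs. A match is a description of letters and not of a bound factor.

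Neighbouring genes were at mixed levels. Within 50 kb of at least 1 of them lie 18 other protein-coding genes, of which 5 were called higher, 8 lower and 5 neither, beside 15.1% higher and 52.5% lower over all genes tested. Around the Tnf cluster, Ddx39b, an RNA helicase of mRNA export, had a TPM of 72.5, 87.1 and 78.7, and Prrc2a, an RNA-binding protein, 49.2, 59.3 and 54.4. Bag6, a chaperone gene near Ltb, had 59.1, 51.5 and 45.4. These 3 were called higher but lay well below Tnf in every library. Between them, Nfkbil1, named for its likeness to NF-κB inhibitors, had a TPM of 6.41, 2.13 and 4.91, Aif1, a calcium-binding protein of macrophages, 9.27, 7.07 and 4.98, and Lst1, a leukocyte membrane protein, 3.53, 3.27 and 1.52, and none of the 3 was called. Gm16181 (1.63, 0.96 and 1.69) and Atp6v1g2, a subunit of the vacuolar proton pump (1.00, 0.99 and 1.31), were called lower; both overlap Nfkbil1 on the opposite strand, so reads of the overlaps are uncertain. The alignment-free TPM of Gm16181 was 24.0, 13.3 and 19.6, above the reference gene of the alignment-based table, and that of Atp6v1g2 was 3.21, 1.81 and 3.61.

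**Figure D2:**
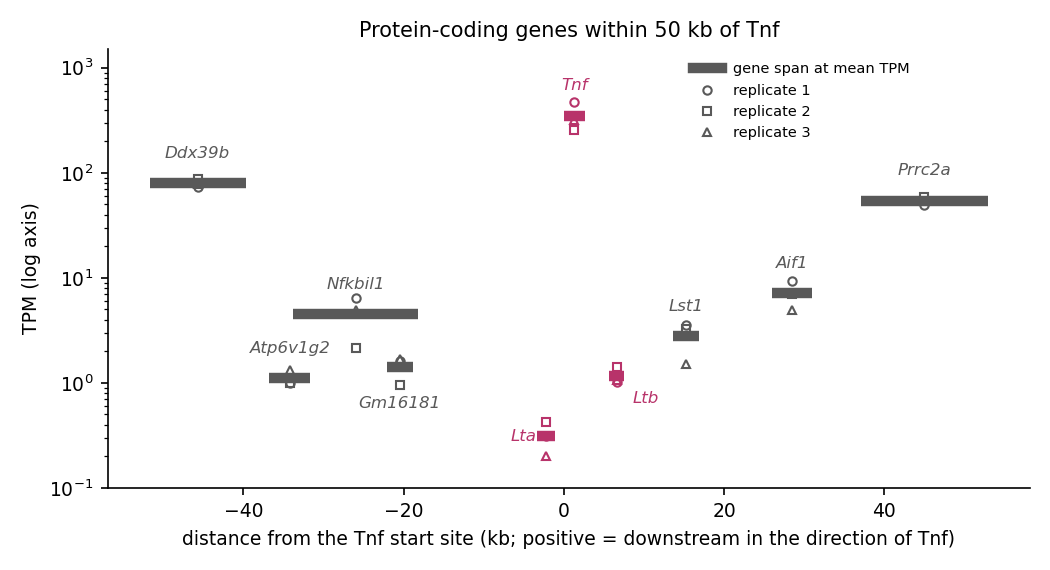
Protein-coding genes within 50 kb of Tnf by distance from the Tnf start site in kb (positive values lie downstream in the direction of Tnf) and by level in TPM on a log axis. Bars span each gene at its mean TPM over 3 libraries and open symbols give the replicates; Tnf, at a mean of 350, stands above every neighbour while Lta and Ltb, in the same colour, lie at 0.31 and 1.16.

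Around Tnfsf9, Dennd1c, a DENN domain protein, was called higher at a TPM of 69.9, 57.5 and 70.0. Cd70, another TNF family ligand 38239 bases away, was called lower at 0.34, 0.07 and 0.08 from 3, 1 and 1 counts. Crb3 (0.59, 0.50 and 0.36) and Slc25a23 (1.52, 0.90 and 1.05), which overlap each other on opposite strands, were also lower, and Tubb4a (3.44, 1.94 and 3.12) was not called. Tnfrsf1a shares its region with Ltbr, the receptor of lymphotoxin beta, which had a TPM of 2.81, 6.49 and 2.32 (14.2, 16.4 and 15.03 in the alignment-free table) and was not called. Plekhg6, whose annotated end is 175 bases from that of Tnfrsf1a on the opposite strand (0.44, 0.33 and 0.34), and Scnn1a, a sodium channel subunit (0.40, 0.70 and 0.68), were lower. Beside Tnfrsf1b, Vps13d, a lipid transfer protein, was called higher at 67.8, 85.6 and 80.2, and Tnfrsf8, the gene of CD30, was lower at 2.27, 2.17 and 1.56.

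Isoform tables were read next, because chromatin RNA includes transcripts that are not fully spliced. Tnf, Lta and Tnfsf9 have no annotated retained-intron form. In Ltb the form with a retained intron, Ltb-202, took 100%, 72.3% and 100% of the transcript TPM in the alignment-based table (90.8% ± 16.0, SD, n = 3) and 54.7%, 63.2% and 80.4% in the alignment-free table (66.1% ± 13.1). Over 5823 genes with such a form, the median share was 40.2% and 41.6% in these tables. The values of Ltb lay above those medians in every library, but they rest on 17, 34 and 27 counts in the alignment-based and 28, 49 and 42 in the alignment-free table. The retained intron, intron 2, is at chr17:35195366-35195703 (338 bases, plus strand); its ends are shown, each with 20 bases of the neighbouring exon and the first or last 60 bases of the intron, to show what Ltb-202 keeps and the spliced forms remove. Capitals mark the GT and AG at the intron's ends.
Ltb intron 2 start: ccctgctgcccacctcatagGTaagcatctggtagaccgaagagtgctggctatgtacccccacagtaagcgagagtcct
Ltb intron 2 end: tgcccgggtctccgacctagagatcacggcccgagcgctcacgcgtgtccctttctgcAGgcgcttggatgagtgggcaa

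In the receptors the tables differed on forms annotated as targets of nonsense-mediated decay, the pathway that destroys mRNA with an early stop codon. Tnfrsf1a-202 took 0%, 3.48% and 0% of the TPM of Tnfrsf1a in the alignment-based table (1.16% ± 2.01, SD, n = 3) and 34.5%, 36.9% and 34.9% in the alignment-free table (35.4% ± 1.30). By reads its share in the alignment-free table was 14.0%, 13.7% and 13.6%, with a mean effective length of 390 bases against 1925 for Tnfrsf1a-201. The full-length Tnfrsf1a-201 held 66.7%, 80.0% and 71.3% of the TPM in the alignment-based table and 36.0%, 45.4% and 40.5% in the other. The retained-intron form Tnfrsf1a-205 was at 15.2% ± 4.01 and 18.5% ± 3.78 (SD, n = 3), and for this form the tables overlapped.

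Tnfrsf1b-202 took 0.728%, 0% and 0% of the TPM of Tnfrsf1b in the alignment-based table and 40.2%, 25.8% and 23.5% in the alignment-free table (0.243% ± 0.420 against 29.8% ± 9.08, SD, n = 3). By reads the latter share was 3.29%, 1.82% and 1.60%, from 273, 241 and 203 estimated counts, and the mean effective length was 151 bases against 3587 for Tnfrsf1b-201. The median share of decay forms over 2883 genes was 5.85% and 9.17%. The sequence that tells the Tnfrsf1b forms apart is the end of exon 2 (chr4:145229004-145229074, minus strand, coding sequence), 71 bases that Tnfrsf1b-201 has and Tnfrsf1b-202 lacks, shown in capitals between 20 bases of flanking exon sequence.
Tnfrsf1b exon 2 end: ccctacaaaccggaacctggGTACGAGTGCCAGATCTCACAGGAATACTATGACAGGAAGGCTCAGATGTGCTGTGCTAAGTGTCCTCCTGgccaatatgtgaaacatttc
Of these retained-intron and decay shares, that of Tnfrsf1a-205 stayed within its spread between tables and those of Ltb-202, Tnfrsf1a-202 and Tnfrsf1b-202 did not; the cause of the differences was not tested.

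**Figure D3:**
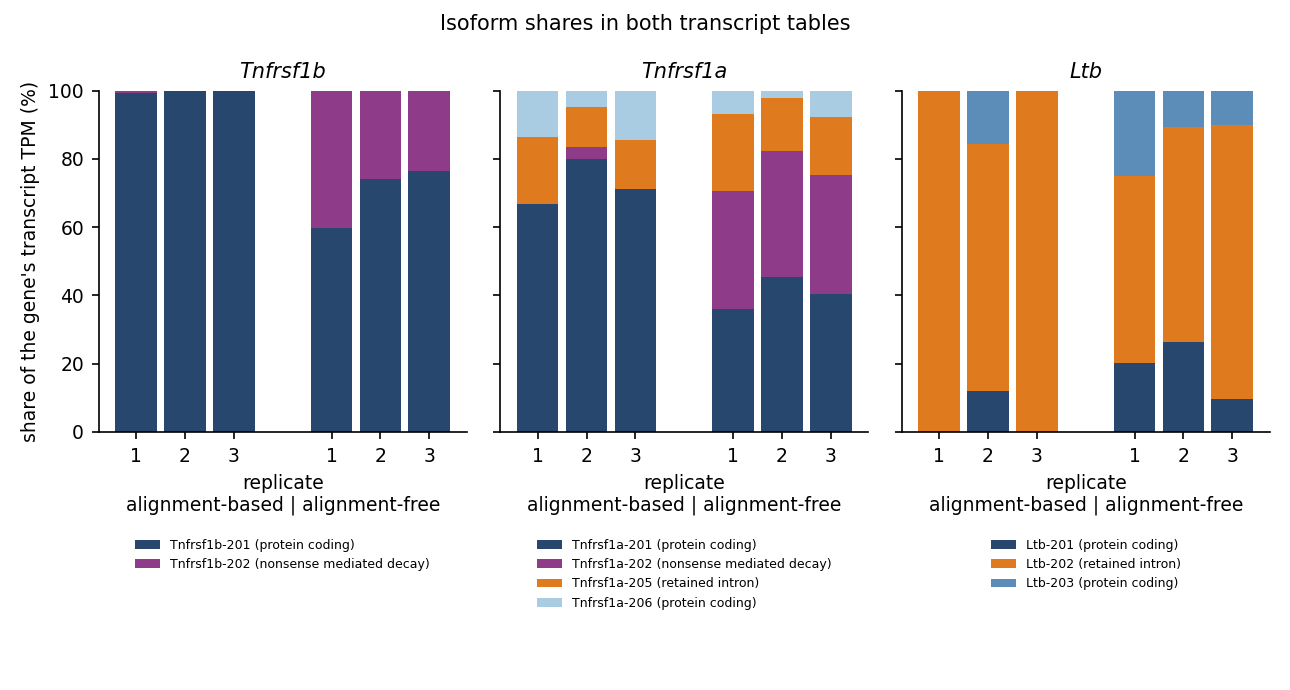
Share of each isoform in the transcript TPM of Tnfrsf1b, Tnfrsf1a and Ltb (percent), with 1 stacked bar per replicate, the alignment-based table on the left and the alignment-free table on the right of each panel; forms at 0 throughout are left out. The nonsense-mediated decay forms (purple) are at 0% to 3.48% on the left and at 23.5% to 40.2% on the right, and the retained-intron form of Ltb (orange) is the largest share in every bar of Ltb.

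Gene levels in both tables were then compared per library as the log2 ratio of alignment-based to alignment-free TPM. Over 8765 protein-coding genes the median ratio was -0.46, with the 10th and 90th percentiles at -1.43 and 0.07. Tnfsf9 lay at -0.04 ± 0.17 (SD, n = 3), Ltb at -0.21 ± 0.40, Tnf at -0.30 ± 0.13 and Lta at -0.31 ± 0.15. The receptors had lower ratios, -0.91 ± 0.31 for Tnfrsf1b and -0.92 ± 0.27 for Tnfrsf1a, with all 6 values negative. All 6 genes lay between those percentiles, and the alignment-free TPM of Tnfrsf1b was 221, 133 and 152.

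The spread between libraries was widest for Tnfsf9 over all 3 libraries, though not without replicate 2. On log2 CPM (counts scaled for library size by TMM, compared within a gene only) the SD over 3 libraries was 0.46 for Tnfsf9, 0.29 for Tnf and 0.28 for Ltb, against 0.12 for Tnfrsf1b and 0.083 for Tnfrsf1a; the median over 10185 protein-coding genes was 0.25. Lta did not pass the count filter. Among 356 genes of like level, 89.3% had a lower SD than Tnfsf9, and among 175 genes of like level 66.9% had a lower SD than Tnf. Among genes of like level 38.4% had a lower SD than Ltb, 24.0% a lower SD than Tnfrsf1b and 9.05% a lower SD than Tnfrsf1a, so these 3 were steadier than most genes of their level. Tnf deviated from its mean by 0.30, -0.28 and -0.02 and Tnfsf9 by 0.33, -0.52 and 0.19 in replicates 1, 2 and 3. Replicate 2, the lowest for both, was made from the least RNA (250 ng) and replicate 1, the highest, from the most (1000 ng); with 1 library at each amount, RNA input and replicate cannot be told apart. Without replicate 2 the SD was 0.10 for Tnfsf9, 0.22 for Tnf and 0.15 for Tnfrsf1b. Without replicate 1 it was 0.19 for Tnf, 0.016 for Tnfrsf1a and 0.0087 for Tnfrsf1b. The SD of Tnfsf9 thus rests on replicate 2, and those of Tnfrsf1a and Tnfrsf1b rest on replicate 1. That of Tnf rests on replicates 1 and 2, which deviated in opposite directions.

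**Figure D4:**
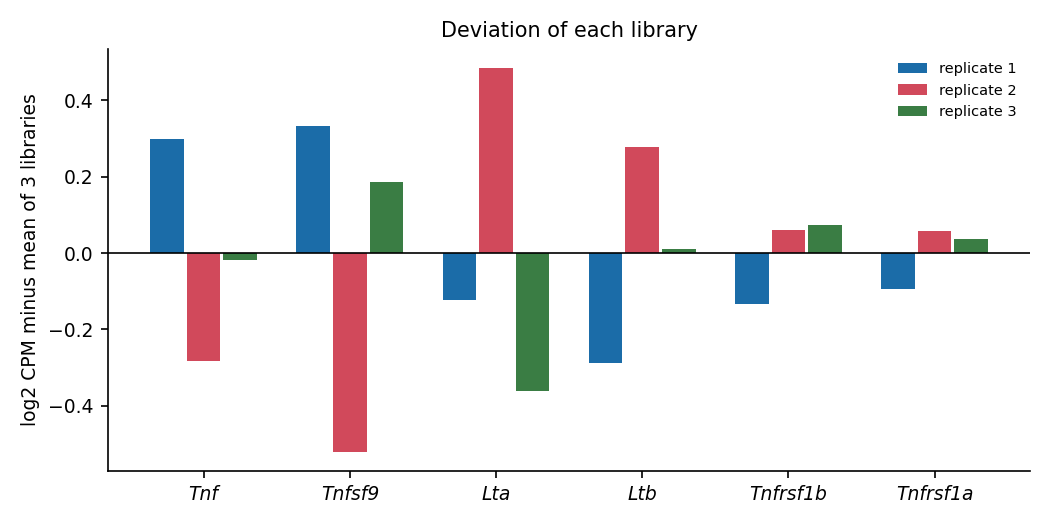
Deviation of each library from the mean of 3 on log2 CPM, for the 4 ligands (left) and 2 receptors (right), with 1 bar per replicate. Tnf and Tnfsf9 are lowest in replicate 2, at -0.28 and -0.52, Lta and Ltb are highest there, and the bars of both receptors lie between -0.13 and 0.07. The bars of Lta come from scaling without the count filter, which it did not pass. They rest on 5, 11 and 5 counts, too few to tell the libraries apart.

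Beside Tnf and Tnfsf9, no other of the 18 TNF superfamily ligands was called higher, 14 were lower, including Ltb and Lta, and 2 were neither, with a median of -4.07 on the log2 scale. Over all genes tested 15.1% were higher and 52.5% lower, with a median of -1.75. Listed genes were tested at any level, whereas other genes had to pass the filter on low values. Without that filter 5.08% of all 55536 genes were higher and 85% lower, with a median of -6.13. Tnfsf13, the gene of APRIL, a survival factor of plasma cells, had a TPM of 11.3, 8.51 and 8.09, and Tnfsf12, the gene of TWEAK, 5.29, 7.34 and 6.40, and neither was called. Tnfsf14, the gene of LIGHT, at 2.79, 1.61 and 2.16, and Tnfsf4, the gene of OX40 ligand, at 2.71, 1.26 and 1.35, were called lower. Cd40lg, Fasl and Tnfsf11, known mainly from T cells and stromal cells, had 0 counts in every library.

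Of 28 receptors of the superfamily 2 were higher, Cd40 and Tnfrsf1b, 19 were lower and 7 neither, with a median of -2.90, against the same 15.1%, 52.5% and -1.75 over all genes. Without the filter on low values, 85% of all genes were lower, with a median of -6.13. Cd40, the receptor through which helper T cells activate macrophages and B cells, had a TPM of 255, 118 and 230, above Tnfrsf1b in every library. Its TPM was lowest in replicate 2, as was that of Tnf, Tnfsf9, Tnfrsf1b and Tnfrsf1a. In the alignment-free table Cd40 was at 1343, 577 and 1048. Tnfrsf14, the receptor of LIGHT (13.8, 14.96 and 12.0), Tnfrsf11a, the gene of RANK (7.67, 9.67 and 7.56), and Fas, a death receptor (7.17, 4.79 and 5.42), were not called, which places them with Tnfrsf1a near the reference gene. Edar, Tnfrsf11b, Tnfrsf19 and Tnfrsf9 had 0 counts in every library. Tnfrsf9 is the receptor of CD137 ligand, so the chromatin of these cells held a TPM of 152 to 335 of the ligand gene Tnfsf9 and no count of its receptor gene; the alignment-free table listed Tnfrsf9 at 0.465, 0.443 and 1.00.

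**Figure D5:**
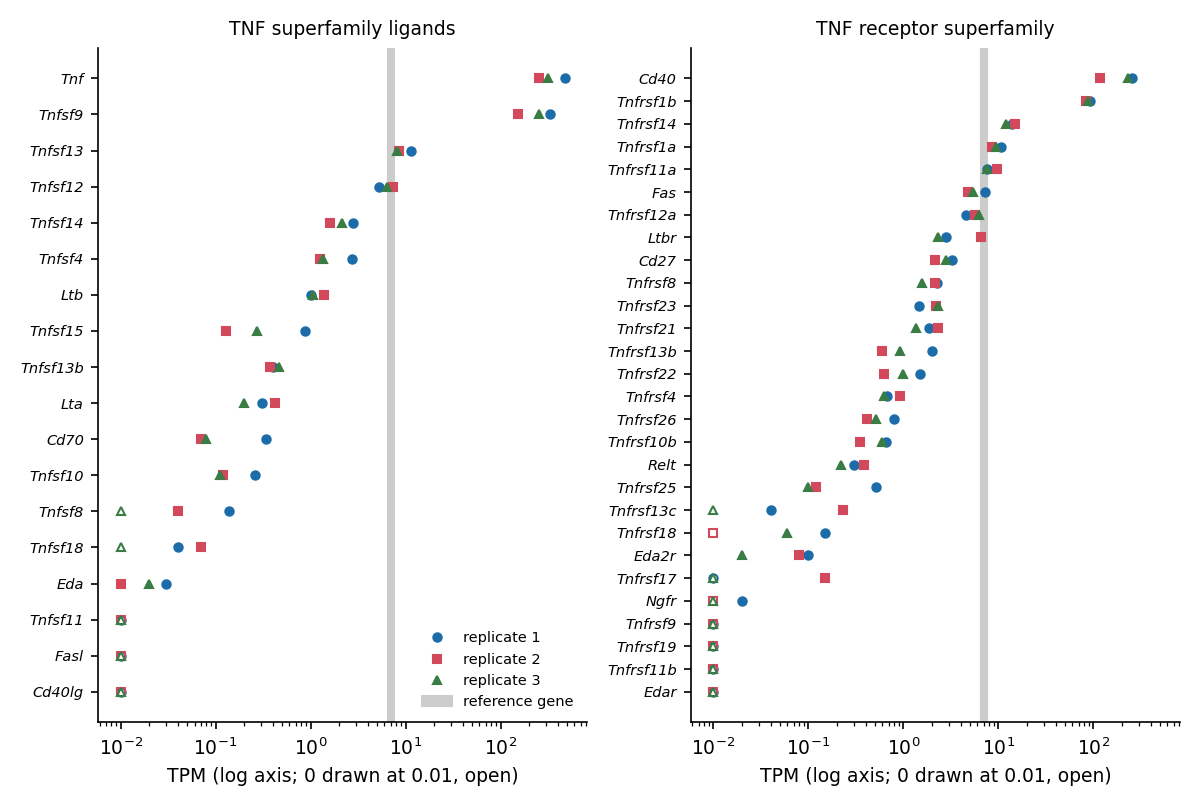
Level of 18 TNF superfamily ligands (left) and 28 receptors (right) in TPM on a log axis, with 1 symbol per replicate, genes ordered by mean TPM and values of 0 drawn as open symbols at 0.01; the grey band is the reference gene. Tnf and Tnfsf9 stand apart at 152 to 473 among the ligands and Cd40 and Tnfrsf1b at 83.5 to 255 among the receptors.

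Of 30 genes that act downstream of the TNF receptors, 14 were called higher, 3 lower and 13 neither, with a median of 1.29 on the log2 scale, against 15.1% higher, 52.5% lower and a median of -1.75 over all genes tested. Tnfaip3, the gene of the NF-κB inhibitor A20, had a TPM of 930, 622 and 742, above Tnf in every library. Cflar, which blocks caspase-8, had 391, 182 and 267, Birc3, a ubiquitin ligase of the receptor complex, 290, 150 and 153, and Tnip1, a partner of A20, 184, 181 and 171. The 3 genes called lower encode adaptors: Fadd, which links death receptors to caspase-8 (1.26, 0.85 and 0.71), Tab3, a partner of the kinase TAK1 (2.45, 1.16 and 1.14), and Tradd, which binds the death domain of the receptor encoded by Tnfrsf1a (1.37, 1.82 and 1.59). Tradd was named after its values were seen.

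Of 8 genes for the release and clearance of TNF, 4 were higher, 3 lower and 1 neither, with a median of 0.90, beside 15.1% higher and 52.5% lower of all genes. In alignment-free values 1 of the 8 was lower, beside 48.2% of all genes. Adam17, the protease that sheds TNF, had a TPM of 128, 93.6 and 88.9, and Rhbdf2, which carries ADAM17 to the cell surface in macrophages, 84.4, 79.5 and 81.2. Furin, which activates ADAM17, was at 43.1, 48.0 and 42.0, and Sppl2a, which cleaves the stub of TNF left in the membrane, at 38.5, 19.4 and 24.0; these 4 were the genes called higher. Rhbdf1, the relative of Rhbdf2, was lower at 1.02, 1.35 and 1.45, as were Timp3, an inhibitor of ADAM17 (0.17, 0.28 and 0.20), and Frmd8, which stabilises the complex of ADAM17 and the rhomboid-like proteins (1.71, 2.11 and 1.98) and was named after its values were seen. The alignment-free table gave Timp3 6.15, 4.16 and 5.10 and Frmd8 5.18, 4.90 and 4.78.

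The genes most like each of the 6 in level and in pattern over the 3 libraries were taken from 12266 protein-coding genes by the root mean square distance on the log2 scale relative to the reference gene. Closest to Tnf were Luc7l2 (distance 0.080; TPM 446, 276 and 324) and Rsrp1 (0.15; 514, 294 and 345). Closest to Tnfsf9 were Parp14 (0.083; 335, 140 and 242) and Mapkapk2 (0.16; 295, 139 and 227). By this distance 16 genes lay within 0.25 of Tnf and 12 within 0.25 of Tnfsf9, against 113 for Tnfrsf1b, 380 for Tnfrsf1a, 139 for Ltb and 57 for Lta. The distance joins level and pattern, so these are not counts of genes at a like level. Nearest to Tnfrsf1b were Cdk11b (0.027) and Eif3a (0.041), to Tnfrsf1a Rpl17 (0.023) and St6gal1 (0.032), to Ltb Pinx1 (0.030) and Gdf3 (0.060), and to Lta Aldh1b1 (0.039) and Mtap (0.071).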

How the data were processed

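Chromatin RNA of 3 libraries of 1 group was analysed, so replicate numbers pair no groups. The authors deposited, per library, a gene table and a transcript table with expected counts, TPM and FPKM, derived from alignments (alignment-based), with an isoform percent per transcript, and a transcript table with estimated counts and TPM derived directly from the reads (alignment-free). Assembly mm10 and annotation M21 are stated in the deposited notes; which programs were run, and how strand was used, is not given in the sources used here. Those 26345 rows of the gene table that are not annotated genes were left out of tests.

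Levels were analysed as log2(TPM + 0.1) minus the reference gene, which understates differences of low genes. In 18428 genes (listed ones and all whose mean TPM reached 0.1), limma 3.58.1 (treat, 2-fold band, trended variance, two-sided) was run in R 4.3.3 with Benjamini-Hochberg adjustment over all of them, and the p-values measure the spread between these libraries only. The fit was tested on simulated data. Spread used rounded expected counts in edgeR 4.0.16 (TMM, minimum count 10, prior count 2), genes of like level being those within 0.5 on log2 CPM. Isoform percent was computed from deposited transcript TPM. Python 3.11.15 was used for joins and intervals. Sequences came from the annotation's transcripts and from RefSeq (GRCm38.p6), and no motif match was tested.

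The 6 genes and all lists were chosen with earlier results of these data known. Named beside them were, per pathway list, the 4 genes of highest and 2 of lowest mean TPM (with ties), the highest gene of each marker list, protein-coding genes within 50 kb, and the 2 nearest genes in level. Alternatives varied the pseudocount, filter, band, reference, table, unit, scaling and libraries. A listed marker is not reported here.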

Additional observations from a re-analysis of the deposited data

How the results depend on the processing

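No paired analysis of conditions was possible because the series has 1 group. Of 295 values recomputed under alternatives, 263 kept their direction and call (or stayed within 1.5 times or the spread), 1 reversed and 31 changed otherwise; the 42 recomputed differences between genes all kept their sign. The reversal was Tnfrsf1a at -0.73 with the reference from a TPM of 5. Counts of the 6 genes called lower were 1 with a filter at a mean TPM of 1 (which removes Lta), with a 4-fold band and with the reference from a TPM of 0.1, while those called higher were 4 with no band, with the reference from 0.1 and in alignment-free values, where Tnfrsf1a was added, and 3 otherwise. That filter left 3 ligands and 5 receptors of the superfamily lower, because fewer genes were tested, and 23.1% of all genes were lower. With no band, 4 receptors were higher and 6 signalling genes lower, and 23.3% of all genes were higher and 65.3% lower. With the 4-fold band, 8 signalling genes were higher and 1 lower, and 1 shedding gene lower. That band left 7.97% of all genes higher and 36.4% lower. With the reference from a TPM of 5, which moved the median of all genes by -1.19, 8 signalling genes were higher and 7 lower, and 7.3% of all genes were higher and 68.9% lower. With the reference from 0.1, which moved that median by 1.06, 4 receptors were higher, 1 signalling gene and 1 shedding gene lower, and 24.5% and 36.6% of all genes were called. In alignment-free values, 5 receptors were higher and 1 shedding gene lower, and 16.4% of all genes were higher and 48.2% lower. There the shares of the retained-intron form of Ltb and of the decay forms of Tnfrsf1a and Tnfrsf1b were 66.1%, 35.4% and 29.8%. The cause of these differences was not tested. Alignment-free counts gave an SD of log2 CPM of 0.18 for Ltb and 0.021 for Tnfrsf1a. Leaving out 1 library changed no call of the 6 genes. Depth limits Lta, with 21 counts in all, and Ltb, with 78. Lta did not pass the count filter, so no SD of it is given, and it had no value under the filter at 1.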
